A study of Mus musculus with 24 samples.

Results

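Transcripts of 10 mouse genes that limit oxidative stress were followed across the series. They were 8 genes driven by the transcription factor NRF2 (Hmox1, Nqo1, Gclm, Gclc, Srxn1, Txnrd1, Slc7a11 and Prdx1) and the superoxide dismutase genes Sod1 and Sod2. The members were taken by symbol from a list set with earlier results of these data known, by a rule that uses no measured value, and all 10 were found among the 23420 gene symbols counted in each library. Polyadenylated RNA was sequenced from 24 libraries that fell into 10 groups, 2 from Th2 cultures and 8 from cultures of macrophages derived from bone marrow (BMDMs). Th2 cells are CD4 T cells grown in culture toward the helper type that secretes IL-4, and BMDMs are macrophages grown from bone marrow with M-CSF. The study asked what the loss of TDG, a glycosylase that removes oxidised forms of 5-methylcytosine from DNA, or of the TET dioxygenases that make those forms, changes in dividing T cells and in macrophages activated without cell division.

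All mice were on the C57BL/6 background. TDG iKO cells came from mice with floxed Tdg alleles and TET iTKO cells from mice with floxed Tet1, Tet2 and Tet3 alleles. Both lines carried CreERT2, a Cre recombinase that tamoxifen activates, inserted at the Ndor1 locus and not limited to 1 cell type, with a Rosa26 reporter of Cre activity. Tamoxifen was given to the knockout and to the control (WT) mice. The Th2 groups were TDG iKO and WT, with 4 libraries each and no stimulation with a Toll-like receptor ligand. The BMDM groups formed 2 cohorts, the Tdg cohort with TDG iKO beside WT and the Tet cohort with TET iTKO beside WT, each genotype with 2 libraries at 0 h and 2 at 6 h of Kdo2-lipid A (KLA), the core part of bacterial lipopolysaccharide and an agonist of Toll-like receptor 4. The mice were adults by the study's methods, and the labels give no ages. The labels do not say whether each Th2 or BMDM library came from a separate animal. The p-values therefore measure the spread between these samples, which may be technical in part.

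NRF2, encoded by Nfe2l2, is held in the cytoplasm and degraded through KEAP1, and it escapes when electrophiles or oxidants modify KEAP1. It then pairs with a small MAF protein on antioxidant response elements, where BACH1 acts as a repressor of genes such as Hmox1. The targets make glutathione and import cystine for it, reduce thioredoxin and peroxiredoxins, and break down haem, while the superoxide dismutases turn superoxide into hydrogen peroxide. Macrophages make superoxide with the phagocyte NADPH oxidase, and Sod2 is a well-known target of NF-κB in cells that sense bacterial lipid A.

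In the mm9 annotation, Hmox1 lies on chromosome 8 at 77617490 to 77624495 and Nqo1 on chromosome 8 at 109912125 to 109927106. Gclm lies on chromosome 3 at 121948475 to 121972902, and Slc7a11 on chromosome 3 at 50168858 to 50247535. Gclc lies on chromosome 9 at 77602342 to 77642292, Srxn1 on chromosome 2 at 151931252 to 151937112, and Txnrd1 on chromosome 10 at 82296696 to 82360469. Prdx1 lies on chromosome 4 at 116358149 to 116373427, Sod1 on chromosome 16 at 90220987 to 90226567, and Sod2 on chromosome 17 at 13200705 to 13210985. Nqo1 and Slc7a11 are on the minus strand and the other members on the plus strand. Gclm overlaps a long intergenic RNA gene on the opposite strand, Gm17494, and the strand setting of the counting is not given in the sources used here. Of the windows of 50 bases in the transcripts, 24.2% for Sod2, 22.9% for Sod1 and 9.84% for Prdx1 had an exact copy elsewhere in the genome, so the counts of these 3 genes may miss reads. The share was 2.20% for Slc7a11, 1.94% for Gclm and 0 for the other 5 members.

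Promoter sequence, from 250 bases before to 50 after an annotated start in the RefSeq table for GRCm38.p6, was matched for 8 of the 10 members, with Hmox1 and Gclc not matched. The stretches that follow are shown so that members that rose with KLA (Slc7a11, Sod2, Txnrd1, Gclm and Prdx1) can be read beside Sod1, which did not pass that test. Each was found once in mm9 and is given there, on the strand of the gene. Capitals mark the motif, which is the amino acid response element TGATGCAA on both strands for Slc7a11, an NF-κB motif for Sod2, and the core of the antioxidant response element, TGACNNNGC read on the opposite strand, for the other 4 genes. Txnrd1 has 3 starts in the table, and the motif lies before 1 of them.
Slc7a11 (chr3:50247554-50247623, minus strand): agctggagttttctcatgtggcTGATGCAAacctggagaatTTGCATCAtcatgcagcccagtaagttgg
Sod2 (chr17:13200592-13200661, plus strand): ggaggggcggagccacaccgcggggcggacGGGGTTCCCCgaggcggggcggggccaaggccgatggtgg
Gclm (chr3:121948310-121948379, plus strand): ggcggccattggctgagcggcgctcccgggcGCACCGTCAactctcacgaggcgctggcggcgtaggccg
Txnrd1 (chr10:82321828-82321897, plus strand): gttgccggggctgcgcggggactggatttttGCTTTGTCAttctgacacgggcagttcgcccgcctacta
Prdx1 (chr4:116358040-116358109, plus strand): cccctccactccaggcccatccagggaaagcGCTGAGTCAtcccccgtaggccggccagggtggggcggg
Sod1 (chr16:90220920-90220989, plus strand): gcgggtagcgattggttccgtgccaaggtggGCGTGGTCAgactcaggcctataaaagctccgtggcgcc

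The antioxidant response element core was found in 5 of 10 member promoters, the fifth being that of Srxn1, and in 12.4% of all 32851 promoters in the table, both strands searched. The amino acid response element, a site of the ATF4 response, was found in Slc7a11 alone among the members, at 2 places between bases -66 and -40, and in 0.895% of all promoters. The NF-κB motif was found in Sod2, from base -83 to -74, and in Prdx1, and in 8.46% of all promoters. The AP-1 motif TGANTCA was found in Srxn1 and Prdx1 and in 7.81% of all promoters, and in Prdx1 one of its matches, from base -131 to -125, overlapped the antioxidant response element core. These matches describe letters in a window and do not show binding.

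Levels are given as normalised counts, which are raw counts divided by a size factor for the library, set once over all 24 libraries. Assigned counts ranged from 4982950 to 26657729 per library with a median of 14853861. The shallowest library, WT replicate 2 at 0 h of the Tdg cohort, stood apart from its partner and held 0 counts of Nqo1. The Th2 libraries of replicates 3 and 4 differed little beyond counting noise in each genotype. Their chi-square per gene was 1.34 and 1.51, against 21.3 to 218 for the other Th2 replicate pairs. They were counted as 1 sample, which gives n = 3 for each Th2 group. Macrophage markers summed to between 257140 and 344317 normalised counts in the BMDM libraries and to between 23.6 and 61.5 in the Th2 libraries, where Csf1r and Mertk were at 0. T cell markers summed to between 29686 and 40693 in the Th2 libraries and to between 120 and 390 in the BMDM libraries. The counts per gene could not check the targeting: Tdg had between 0 and 7 raw counts in all libraries, and Tet2 and Tet3 were not lower in TET iTKO BMDMs. The study itself measured the loss of the floxed exons by qRT-PCR in Th2 cells. Its supplementary figure on BMDMs also gives qRT-PCR of Tet1, Tet2, Tet3 and Tdg relative to WT. Ndor1 was lower in every knockout group than in its WT with no overlap, so the deletion of the target and the CreERT2 insertion cannot be told apart.

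The first comparison asked how the 2 cell types differ in these genes. Resting BMDMs held far more Hmox1 and Srxn1 mRNA than Th2 cells and also more Gclm, Prdx1, Sod2 and Slc7a11, while Sod1 was the member that Th2 cells held more of. Hmox1, the haem oxygenase that degrades haem to biliverdin, iron and carbon monoxide, had 261, 275, 98.1 and 108 normalised counts in the 4 Th2 WT libraries. It had 17114 and 15401 in the WT BMDMs of the Tdg cohort at 0 h and 24112 and 24689 in those of the Tet cohort. The cell types did not overlap, and Hmox1 was 94.0-fold lower in Th2 cells (log2 fold change -6.55 ± 0.35 (SE), n = 3 against 4, DESeq2 adjusted p = 3.87e-76). In bulk samples, fewer cells of a type and less RNA per cell cannot be told apart.

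Srxn1, the sulfiredoxin that repairs over-oxidised peroxiredoxins, had between 76.4 and 103 normalised counts in Th2 WT libraries and between 1767 and 2067 in WT BMDMs at 0 h. It was 21-fold lower in Th2 cells (log2 fold change -4.39 ± 0.22, DESeq2 adjusted p = 5.64e-83). Gclm, the modifier subunit of glutamate-cysteine ligase, was 6.63-fold lower (-2.73 ± 0.27, DESeq2 adjusted p = 1.5e-22), and Prdx1, a peroxiredoxin that removes hydrogen peroxide, was 6.46-fold lower (-2.69 ± 0.33, DESeq2 adjusted p = 5.68e-15). Sod2, the manganese dismutase of mitochondria, was 5.15-fold lower in Th2 cells (-2.36 ± 0.31, DESeq2 adjusted p = 3.52e-13). Slc7a11, the light chain of the cystine-glutamate exchanger, was 3.69-fold lower (-1.89 ± 0.51, DESeq2 adjusted p = 0.000584), from levels of 7.92 to 28.1 in Th2 WT and 58.4 to 96.9 in WT BMDMs at 0 h.

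Sod1, the copper-zinc dismutase of the cytosol, ran the other way, with 7460, 7050, 5337 and 5290 normalised counts in Th2 WT libraries. WT BMDMs at 0 h had 2328 and 4864 when taken from the Tdg cohort and 1483 and 1354 when taken from the Tet cohort, so no BMDM library reached the lowest Th2 library. Sod1 was 2.94-fold higher in Th2 cells (log2 fold change 1.56 ± 0.30, DESeq2 adjusted p = 1.26e-06), a call lost when the Tdg cohort alone stood for the BMDMs (DESeq2 adjusted p = 0.0778). In all, 1 of 10 members was higher and 6 were lower in Th2 cells, where 55.9% of the 13682 genes tested were called, 30% higher and 25.9% lower. The median log2 difference was -2.12 over the members and 0.16 over all genes tested. Txnrd1 (-0.40 ± 0.35, DESeq2 adjusted p = 0.326), Gclc (0.30 ± 0.31, DESeq2 adjusted p = 0.41) and Nqo1 (0.15 ± 0.80, DESeq2 adjusted p = 0.884) did not pass the test, and the signs for Gclc and Nqo1 turned with the Tet cohort alone as BMDMs. The cell types were grown in different media and prepared from different tissues, and cell type cannot be told apart from culture.

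**Figure D1:**
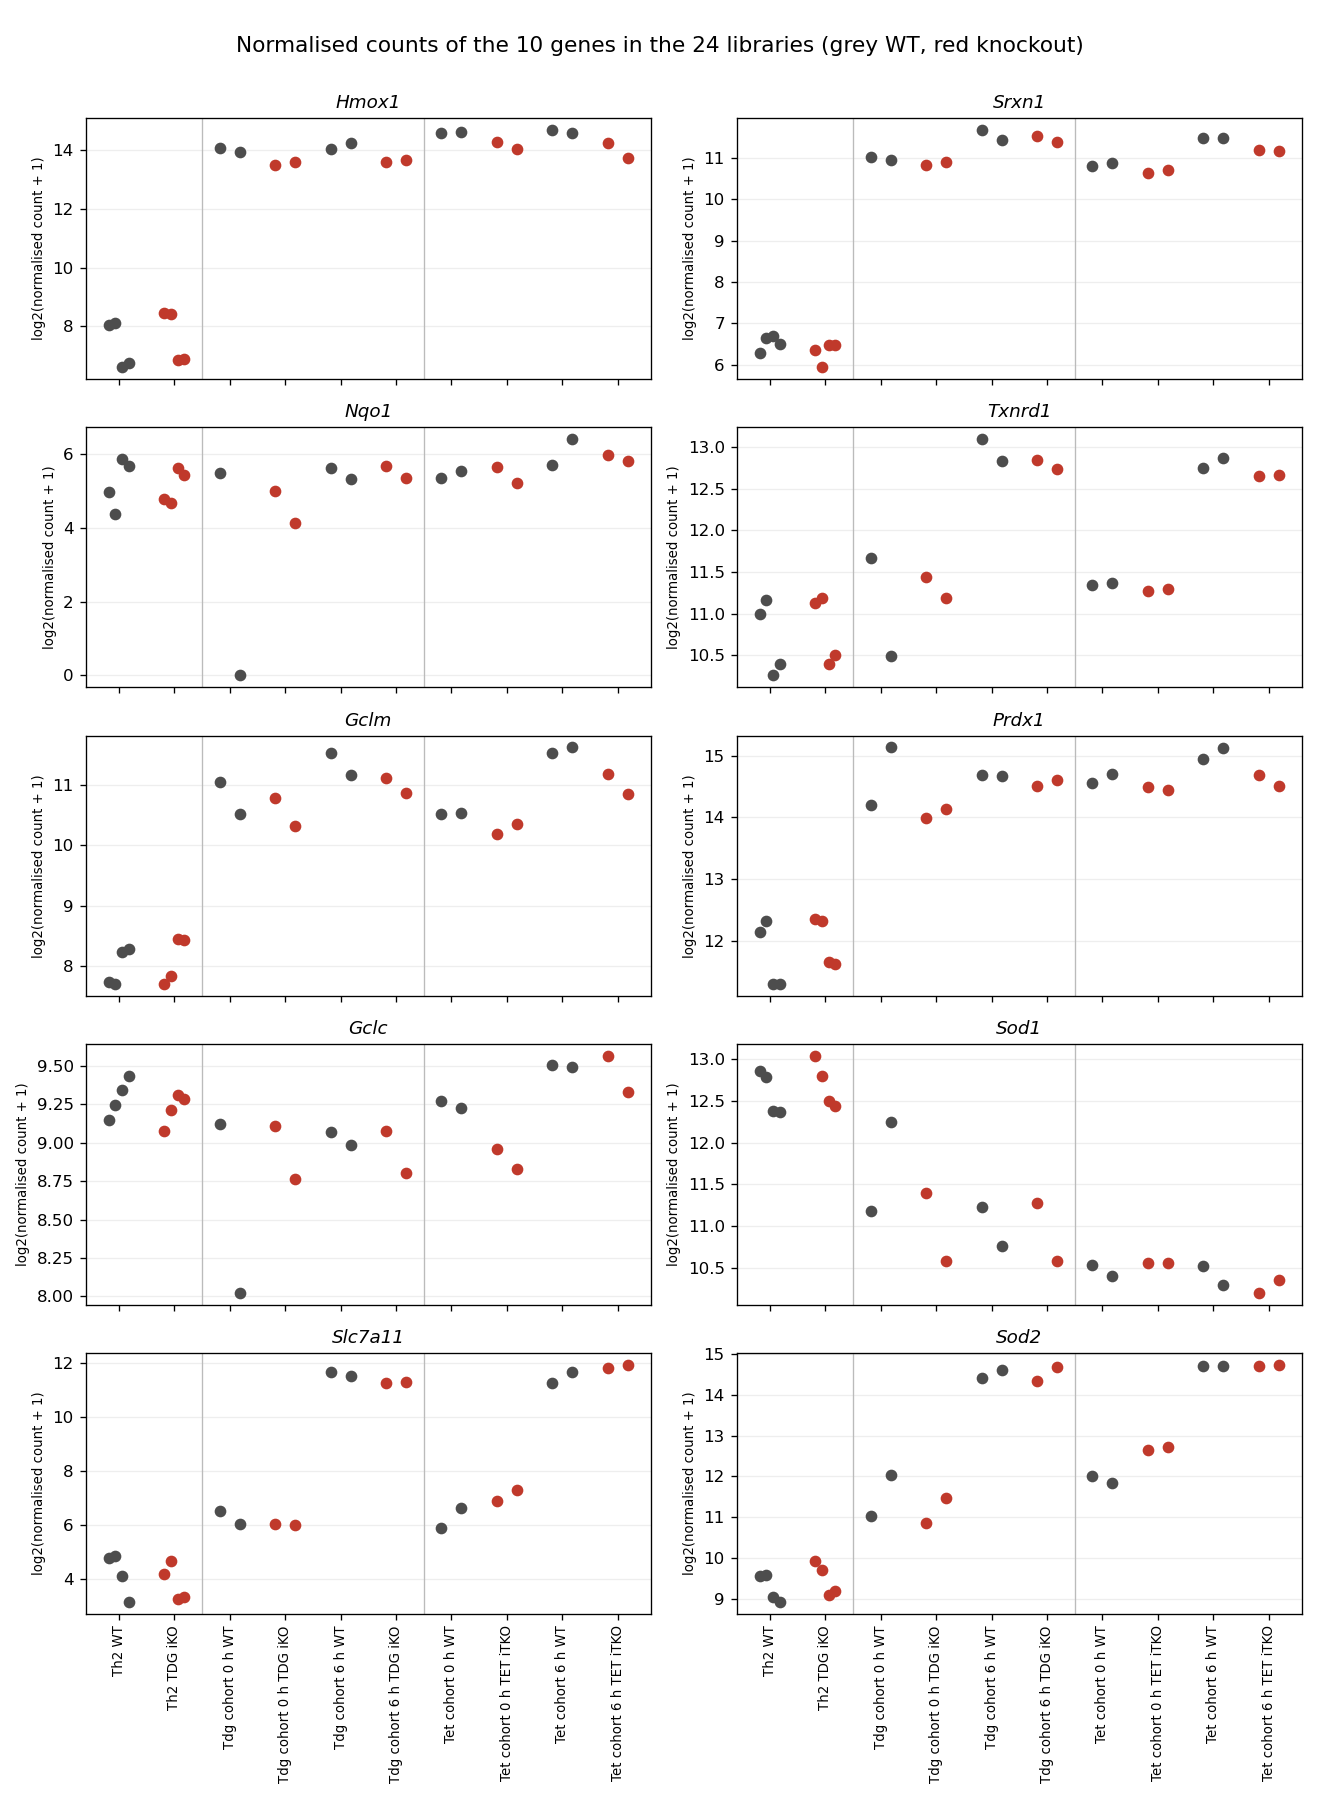
Normalised counts of the 10 members in each of the 24 libraries, one panel per gene, drawn as log2(normalised count + 1). Grey points are WT libraries and red points knockout libraries, ordered by group. Slc7a11 and Sod2 rose between 0 h and 6 h in every BMDM group, Hmox1 was high in BMDM groups at both times, and Sod1 was highest in the Th2 groups.

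Levels of different genes were compared as normalised counts per kb of exon. In Th2 WT cells the order ran from Sod1 at 10229 per kb and Prdx1 at 1338 per kb, through Txnrd1 at 466, Gclc at 179, Sod2 at 177 and Hmox1 at 98.6, to Slc7a11 at 1.97 (group means). In WT BMDMs at 0 h, Prdx1 and Hmox1 led, with 9012 and 7523 per kb for WT of the Tdg cohort and 8350 and 11291 for WT of the Tet cohort. Slc7a11 was again lowest, with 6.89 and 6.90 per kb. Nqo1, a quinone reductase often used as an NRF2 readout, stayed low in both cell types, at 22.2 per kb in Th2 WT cells and between 14.0 and 43.9 in the WT BMDM groups.

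The 2 subunits of glutamate-cysteine ligase, which catalyses the first step of glutathione synthesis, stood in a different ratio in the 2 cell types. The level of the modifier subunit Gclm relative to the catalytic subunit Gclc, both per kb, was 0.261 ± 0.0394 (SD, n = 3) in Th2 WT cells and 0.293 in Th2 TDG iKO cells, and between 1.62 and 3.32 in the 8 BMDM groups (group means). Gclc itself ranged from a group mean of 408 normalised counts in WT BMDMs of the Tdg cohort at 0 h to 722 in WT BMDMs of the Tet cohort at 6 h. The ratio of Sod2 to Sod1 per kb was 0.0172 in Th2 WT cells, 0.148 and 0.463 in WT BMDMs at 0 h, and 2.00 and 3.39 in WT BMDMs at 6 h.

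**Figure D2:**
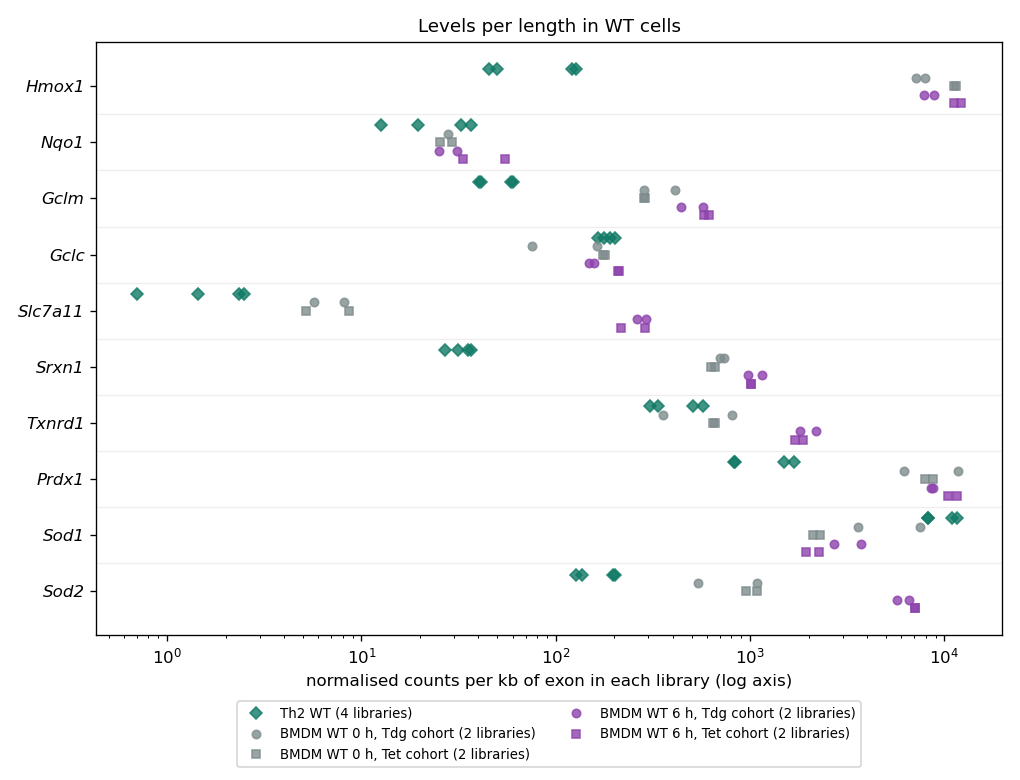
Levels of the 10 members in the libraries of WT cells, as normalised counts per kb of exon on a log axis, with 1 point per library. The 1 library with 0 counts of Nqo1, WT replicate 2 at 0 h of the Tdg cohort, has no point for that gene. Sod1 led in Th2 WT cells, Prdx1 and Hmox1 led in resting BMDMs, and Slc7a11 moved from the bottom of the order at 0 h to near Gclc and Gclm at 6 h.

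Over the 10 groups, the mean of Sod2 was highest in the 4 groups at 6 h of KLA, from 23605 ± 2366 (SD, n = 2) in WT of the Tdg cohort to 27139 ± 358 in TET iTKO, with genotypes that overlapped within each cohort and libraries of the Tet cohort that all lay above those of the Tdg cohort. Next came TET iTKO at 0 h with 6606 ± 285, which stood clear of WT of its cohort at 3893 ± 364. The groups of the Tdg cohort at 0 h, 3120 ± 1480 for WT and 2342 ± 713 for TDG iKO, did not differ beyond their spread. Both Th2 groups closed the order, at 788 ± 208 for TDG iKO and 676 ± 150 for WT (n = 3). Hmox1 was highest in the WT BMDMs of the Tet cohort, at 25294 ± 1354 at 6 h and 24401 ± 408 at 0 h. TET iTKO at 0 h (18371 ± 2194), WT of the Tdg cohort at 6 h (17968 ± 1555), TET iTKO at 6 h (16515 ± 4044) and WT of the Tdg cohort at 0 h (16258 ± 1211) followed within their spreads. The TDG iKO groups were lowest among BMDMs, with 12591 ± 365 at 6 h and 11884 ± 731 at 0 h.

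The second comparison asked how the members respond to 6 h of KLA in WT BMDMs. Slc7a11, Sod2 and Txnrd1 rose in both cohorts, and Gclm, Srxn1 and Prdx1 passed the test in the Tet cohort only; whether the response differed between cohorts was not tested. Hmox1 did not pass in either cohort. Slc7a11 had 91.0 and 64.0 normalised counts at 0 h and 3271 and 2961 at 6 h in the WT BMDMs of the Tdg cohort, and 58.4 and 96.9 against 2427 and 3237 in those of the Tet cohort. Each library at 6 h lay far above each library at 0 h. The rise was 39.1-fold (95% interval 25.5 to 59.8, DESeq2 adjusted p = 7.12e-60) in the Tdg cohort and 36.1-fold (27.7 to 47.1, DESeq2 adjusted p = 1.14e-150) in the Tet cohort.

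Sod2 went from 2074 and 4166 normalised counts at 0 h to 21932 and 25278 at 6 h in the WT of the Tdg cohort, and from 4151 and 3635 to 26984 and 27043 in the WT of the Tet cohort. The times did not overlap, and the rise was 7.55-fold (log2 fold change 2.92 ± 0.40, DESeq2 adjusted p = 6.98e-11) and 6.98-fold (2.80 ± 0.10, DESeq2 adjusted p = 7.82e-171). Txnrd1, the cytosolic thioredoxin reductase, went from 3249 and 1434 to 8775 and 7272 in the Tdg cohort and from 2604 and 2646 to 6861 and 7498 in the Tet cohort. Its rise was 3.43-fold (1.78 ± 0.39, DESeq2 adjusted p = 0.00018) and 2.75-fold (1.46 ± 0.10, DESeq2 adjusted p = 5.89e-47), and in the Tdg cohort the log2 value was 2.46 without WT replicate 1 at 0 h and 1.32 without replicate 2. The other dismutase, Sod1, did not pass the test, with log2 changes of -0.81 ± 0.46 (DESeq2 adjusted p = 0.324) and -0.06 (DESeq2 adjusted p = 0.838). The first value was -0.16 without the shallowest library and -1.26 without its partner.

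In the WT of the Tet cohort, Gclm went from 1460 and 1484 to 2962 and 3143 normalised counts, a 2.09-fold rise (log2 fold change 1.06 ± 0.13, DESeq2 adjusted p = 4.67e-14). Srxn1 rose 1.58-fold (0.66 ± 0.11, DESeq2 adjusted p = 5.2e-09) and Prdx1 1.33-fold (0.41 ± 0.11, DESeq2 adjusted p = 0.00116). The Prdx1 call was lost without WT replicate 1 at 0 h (0.34, DESeq2 adjusted p = 0.0869) or WT replicate 2 at 6 h (0.32, DESeq2 adjusted p = 0.0567). In the Tdg cohort the log2 changes were 0.54 ± 0.33 for Gclm (DESeq2 adjusted p = 0.359), 0.56 ± 0.24 for Srxn1 (DESeq2 adjusted p = 0.147) and -0.07 for Prdx1, and the low-depth WT library at 0 h held 35925 normalised counts of Prdx1 against 18924 in its partner. Hmox1 changed by 0.15 ± 0.23 (DESeq2 adjusted p = 0.781) and 0.06 ± 0.14 (DESeq2 adjusted p = 0.847) on the log2 scale. Gclc and Nqo1 did not pass either. In the Tdg and Tet cohorts in turn, Gclc changed by 0.34 ± 0.40 (DESeq2 adjusted p = 0.685) and 0.26 ± 0.15 (DESeq2 adjusted p = 0.223). Nqo1 changed by 0.90 ± 1.01 (DESeq2 adjusted p = 0.668) and 0.68 ± 0.41 (DESeq2 adjusted p = 0.255).

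The count was 3 of 10 members higher and 0 lower in the WT of the Tdg cohort, against 8.6% of the 11633 genes tested, 5.29% higher and 3.32% lower. In the WT of the Tet cohort 6 were higher and 0 lower, against 24.1% of 11917 genes, 13.1% higher and 11.1% lower. The median log2 change over the members was 0.55 and 0.67, and over all genes tested -0.03 and -0.01. In the knockout BMDMs the same 3 genes, Slc7a11, Sod2 and Txnrd1, passed the test in TDG iKO, where 7.08% of 11633 genes were called, 4.27% higher and 2.81% lower. Their rises were 40.0-fold (26.7 to 59.8), 10.2-fold and 2.80-fold (DESeq2 adjusted p = 4.82e-68, 2.79e-14 and 0.00339). The Txnrd1 call in TDG iKO was lost with edgeR (adjusted p = 0.0986) and held only without replicate 1 at 0 h among the 4 fits that left out a library, in which the log2 value ran from 1.36 to 1.62. In TET iTKO, 6 members were higher and 0 lower, where 24.4% of 11352 genes were called, 12.8% higher and 11.6% lower. Those were Slc7a11 (27.3-fold, 21.2 to 35.1), Sod2 (4.11-fold), Txnrd1 (2.59-fold), Gclm (1.69-fold), Gclc (1.48-fold) and Srxn1 (1.42-fold), with DESeq2 adjusted p from 1.3e-140 to 0.00146. The Gclc call was lost without TET iTKO replicate 2 at 0 h (0.49, DESeq2 adjusted p = 0.0802) or replicate 1 at 6 h (0.43, DESeq2 adjusted p = 0.0795).

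Across the 8 pairs of 0 h and 6 h libraries with the same genotype, cohort and replicate number, Slc7a11 rose 25-fold to 46.3-fold and Sod2 4.02-fold to 11.4-fold. Txnrd1 rose 2.58-fold to 5.07-fold, Gclm 1.26-fold to 2.12-fold and Srxn1 1.37-fold to 1.63-fold, each in 8 of 8 pairs. Hmox1 ranged from 0.812 to 1.24 of its level at 0 h and was higher in 4 of 8 pairs, and Sod1 ranged from 0.357 to 1.03 and was higher in 2 of 8. Prdx1 was higher at 6 h in 7 of 8 pairs, Gclc in 6 of 8 and Nqo1 in 7 of the 7 with a value above 0 at 0 h. The labels give these numbers and do not say that they name animals.

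**Figure D3:**
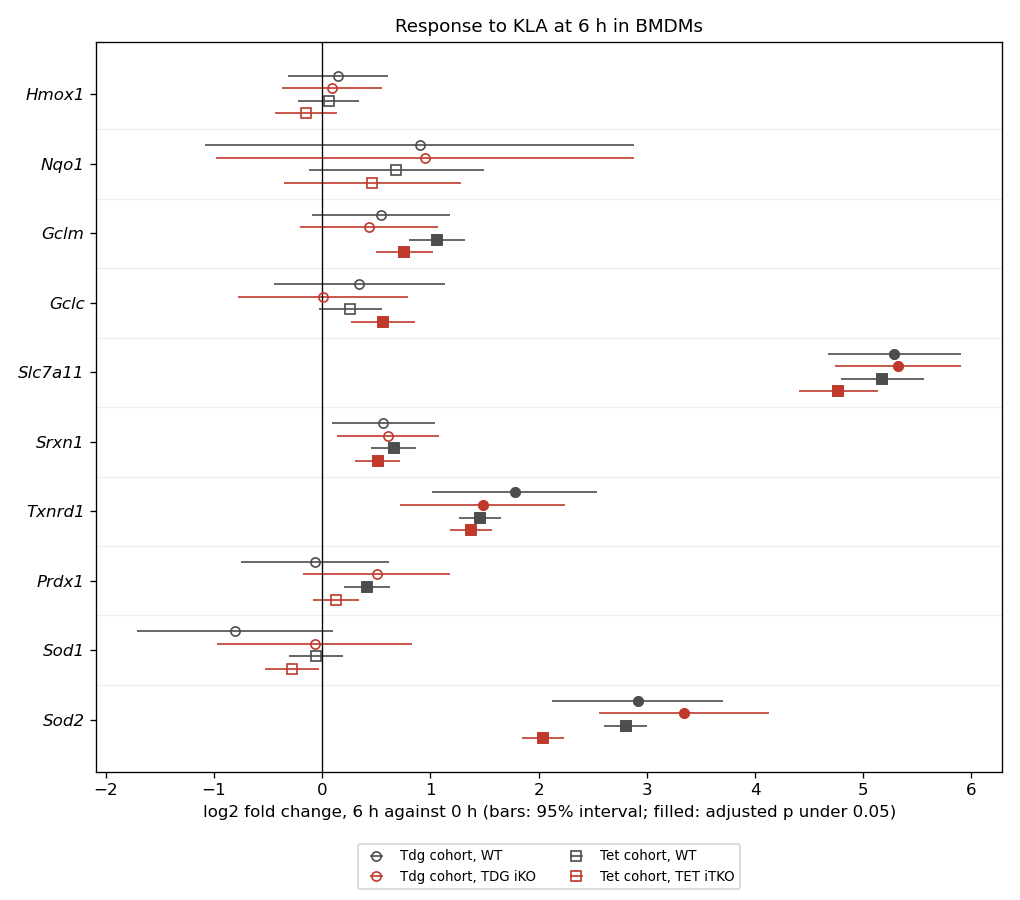
Log2 fold change from 0 h to 6 h of KLA for the 10 members in the 4 BMDM genotypes of the 2 cohorts, with 95% intervals from DESeq2. Filled points have an adjusted p under 0.05. Slc7a11 lies near 5 in all 4, Sod2 between 2.04 and 3.34, and Hmox1 and Sod1 have intervals that include 0 or end close to it.

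The third comparison asked what the loss of the 3 TET enzymes changed in BMDMs. At 0 h Sod2 and Slc7a11 were higher in TET iTKO, and at 6 h Hmox1, Gclm, Prdx1 and Srxn1 were lower. Sod2 at 0 h had 6405 and 6807 normalised counts in TET iTKO and 4151 and 3635 in WT. The genotypes did not overlap, and Sod2 was 1.70-fold higher in TET iTKO (log2 fold change 0.76 ± 0.10, 95% interval 0.57 to 0.96, DESeq2 adjusted p = 7.15e-12). This call held in every setting and in each fit without a library. At 6 h of KLA, Sod2 had 26886 and 27392 normalised counts in TET iTKO and 26984 and 27043 in WT, and the log2 difference had a 95% interval of -0.19 to 0.19.

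The change of the KLA response between the genotypes was itself tested. The KLA-induced rise of Sod2 was smaller in TET iTKO than in WT by 0.76 on the log2 scale (-0.76 ± 0.14, 95% interval -1.04 to -0.49, DESeq2 adjusted p = 7.68e-05), from a higher level at 0 h to an overlapping level at 6 h. It was 1 of 10 members with a changed response, all others having a DESeq2 adjusted p of 1, where 0.426% of 12200 genes were called, 0.0492% with a larger and 0.377% with a smaller change. By edgeR's quasi-likelihood test the adjusted p for Sod2 was 0.141, and edgeR called 1 gene in the whole table.

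Slc7a11 at 0 h had 118 and 156 normalised counts in TET iTKO and 58.4 and 96.9 in WT, which did not overlap. It was 1.75-fold higher (log2 fold change 0.80 ± 0.21, 95% interval 0.39 to 1.22, DESeq2 adjusted p = 0.0039), a call that held in 3 of 5 other settings. It was lost without TET iTKO replicate 2 (0.59, DESeq2 adjusted p = 0.43) or WT replicate 1 (0.51, DESeq2 adjusted p = 0.37) and held without either of the other two. At 6 h it had 3605 and 3899 in TET iTKO and 2427 and 3237 in WT (0.40 ± 0.17, DESeq2 adjusted p = 0.166). The count at 0 h was 2 of 10 members higher and 0 lower, where 7.5% of 12200 genes were called, 4.38% higher and 3.12% lower.

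Hmox1 at 6 h had 19375 and 13656 normalised counts in TET iTKO and 26251 and 24337 in WT. The genotypes did not overlap and the TET iTKO libraries lay further from each other than the WT libraries did. Hmox1 was 1.54-fold lower (log2 fold change -0.62 ± 0.14, DESeq2 adjusted p = 0.000809). At 0 h it had 19922 and 16819 against 24112 and 24689, also without overlap, and was 1.33-fold lower without passing the test (-0.41 ± 0.14, DESeq2 adjusted p = 0.0603). At that time Hmox1 did pass in 3 of 5 other settings, and its log2 value ran from -0.54 to -0.28 over all fits. The change of the Hmox1 response to KLA did not pass the test (-0.21 ± 0.20).

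Gclm at 6 h had 2328 and 1835 normalised counts in TET iTKO and 2962 and 3143 in WT, with no overlap, and was 1.47-fold lower (-0.56 ± 0.13, DESeq2 adjusted p = 0.00112). Prdx1 had 26261 and 23184 against 31652 and 35493, again apart, and was 1.36-fold lower (-0.45 ± 0.11, DESeq2 adjusted p = 0.00159). Srxn1 had 2329 and 2286 against 2854 in both WT libraries and was 1.24-fold lower (-0.31 ± 0.11, DESeq2 adjusted p = 0.0456). The Srxn1 call held in 2 of 5 other settings and in none of the 4 fits without a library. The count at 6 h was 4 of 10 members lower and 0 higher, where 6.58% of 11634 genes were called, 3.34% lower and 3.24% higher. All 4 calls rested on TET iTKO replicate 2: without it the log2 changes were -0.38 for Hmox1, -0.39 for Gclm, -0.35 for Prdx1 and -0.29 for Srxn1, with DESeq2 adjusted p of 0.12, 0.14, 0.13 and 0.34. The Prdx1 call was also lost without WT replicate 2 (-0.36, DESeq2 adjusted p = 0.07).

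Txnrd1, Gclc and Nqo1 did not pass at either time. Their log2 differences at 0 h were -0.07, -0.35 and 0.00 (DESeq2 adjusted p = 0.87, 0.164 and 1), with a 95% interval of -0.65 to -0.06 for Gclc, and at 6 h they were -0.16, -0.05 and -0.23 (DESeq2 adjusted p = 0.478, 0.943 and 0.889). Sod1 differed by 0.08 at 0 h and -0.14 at 6 h (DESeq2 adjusted p = 0.885 and 0.707). Over the members the median log2 difference was -0.12 at 0 h and -0.19 at 6 h, and over all genes tested 0.01 and 0.00.

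Markers of some other cells moved with the TET iTKO genotype. Markers of neutrophils and myeloid progenitors (7 of 8 listed genes were in the files) summed to between 420 and 763 normalised counts in WT and between 987 and 2221 in TET iTKO libraries. Of these 7, 3 were called higher and 0 lower at each time. Over all genes tested, 4.38% were higher and 3.12% lower at 0 h, and 3.24% higher and 3.34% lower at 6 h. T cell markers overlapped, with sums of 184 to 390 in WT and 222 to 297 in TET iTKO. CD8 T cell markers also overlapped, with sums of at most 3.72 in WT and 7.43 in TET iTKO. B cell markers summed to between 20.8 and 36.3 in WT and between 54.6 and 291 in TET iTKO, and macrophage markers (6 of 7 listed) to between 328774 and 344317 in WT and between 257140 and 267919 in TET iTKO. Dendritic cell markers summed to between 2.60 and 4.65 in WT and between 6.69 and 15.4 in TET iTKO, and to at most 47.2 in any library of the series. Erythroid markers summed to less than 1 normalised count in every library. The part of these differences in the results for Sod2, Slc7a11, Hmox1, Gclm, Prdx1 and Srxn1 was not tested.

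**Figure D4:**
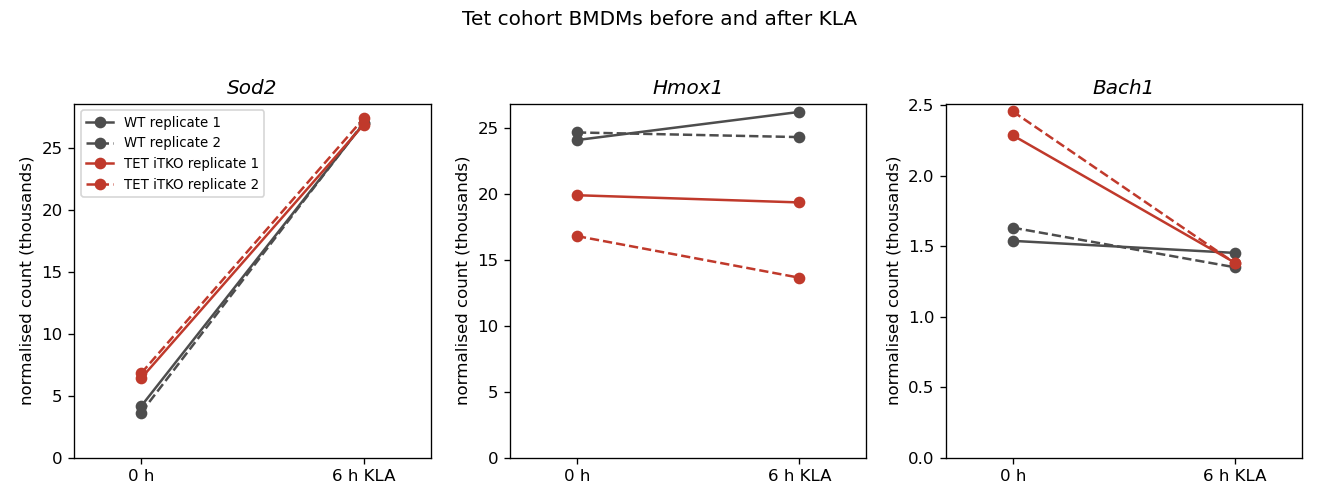
Normalised counts of Sod2, Hmox1 and Bach1 in the 8 BMDM libraries of the Tet cohort at 0 h and 6 h of KLA, with lines joining libraries of the same replicate. Sod2 started higher in TET iTKO and overlapped WT at 6 h, Hmox1 lay lower in TET iTKO at both times, and Bach1 was higher in TET iTKO at 0 h and overlapped WT at 6 h.

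The fourth comparison asked what the loss of TDG changed. No member passed the test in BMDMs at 0 h or 6 h or in Th2 cells, where DESeq2 called 0 genes in each whole table (percent called 0 in all 3). At an unadjusted p under 0.05, DESeq2 found 1, 1 and 0 members in turn and 265, 34 and 77 genes in all. edgeR found 0, 1 and 0 members and 125, 27 and 55 genes at that threshold, and called 0 after adjustment. The member at 0 h was Prdx1 and that at 6 h was Hmox1.

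Hmox1 had 11367 and 12400 normalised counts in TDG iKO and 17114 and 15401 in WT at 0 h, and 12333 and 12849 against 16868 and 19068 at 6 h. The genotypes did not overlap at either time. Hmox1 was 1.37-fold lower at 0 h (log2 fold change -0.46 ± 0.23, unadjusted p = 0.0507 and adjusted p = 1 by DESeq2) and 1.43-fold lower at 6 h (-0.51 ± 0.23, 95% interval -0.97 to -0.05, unadjusted p = 0.0291 and adjusted p = 1 by DESeq2). Prdx1 at 0 h had 16346 and 17971 in TDG iKO against 18924 and 35925 in WT (-0.69 ± 0.35, unadjusted p = 0.0477 and adjusted p = 1 by DESeq2). The higher WT value came from the shallowest library. Without it the difference was -0.12. Without the other WT library, Prdx1 passed the test (-1.09, DESeq2 adjusted p = 0.000533) in a fit that called 1177 genes in all and took the lone library to vary like the other groups.

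Sod2 at 6 h had 20905 and 26383 normalised counts in TDG iKO and 21932 and 25278 in WT, and the 95% interval of the log2 difference ran from -0.78 to 0.79. Sod1 at 0 h had a log2 difference of -0.78 ± 0.46 (95% interval -1.68 to 0.12), which was -0.13 without the shallowest library and was -1.25 without TDG iKO replicate 1. The KLA response differed between TDG iKO and WT by 0.43 ± 0.57 for Sod2, 0.03 ± 0.43 for Slc7a11 and -0.05 ± 0.33 for Hmox1 on the log2 scale, with a DESeq2 adjusted p of 1 for all members. The count was 0 of 10 members (percent called 0), with 37 genes and 0 members at an unadjusted p under 0.05 by DESeq2 and 24 genes and 0 members by edgeR. Markers of neutrophils and myeloid progenitors summed to between 417 and 2867 normalised counts in WT and between 453 and 6660 in TDG iKO libraries of this cohort. At 0 h and 6 h in turn, replicate 1 held 2258 and 2867 in WT and 6660 and 6515 in TDG iKO. Replicate 2 held 609 and 417 in WT and 453 and 480 in TDG iKO. The part of these markers in the values above was not tested. At 6 h the 95% intervals of the TDG iKO difference for Hmox1, Gclm (-0.99 to 0.28), Prdx1 (-0.80 to 0.56) and Srxn1 (-0.57 to 0.37) held the values that passed the test in TET iTKO. At 0 h those for Sod2 (-1.21 to 0.37) and Slc7a11 (-1.01 to 0.31) did not. This reading leaves out the spread of the TET iTKO values, and the direct test of the 2 effects passed for neither gene (DESeq2 adjusted p = 0.437 and 0.371). The higher WT value of Sod2 at 0 h, 4166 against 2074, came from the shallowest library. Over all fits the TDG iKO difference at 0 h ran from -0.86 to 0.19 for Sod2 and from -0.51 to -0.05 for Slc7a11.

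In Th2 cells the log2 differences between TDG iKO and WT ran from -0.39 ± 0.63 for Slc7a11 (95% interval -1.62 to 0.84) to 0.32 ± 0.53 for Hmox1 (-0.71 to 1.36), with a median of 0.09 over the members and -0.01 over all genes tested. A split between replicates ran through both genotypes and was not limited to the members. Over the whole table, the chi-square per gene was 106 to 218 between replicates 1 or 2 and replicates 3 or 4. Between replicates 1 and 2 it was 21.3 in TDG iKO and 41.7 in WT. Hmox1, Prdx1, Sod1, Sod2, Txnrd1 and Slc7a11 were higher in replicates 1 and 2 than in replicates 3 and 4 of both genotypes. Nqo1, Gclm and Gclc were lower, all with no overlap. The share of all genes that split in this way was not counted. Hmox1, for example, had 347 and 340 normalised counts in TDG iKO replicates 1 and 2 and 114 and 118 in replicates 3 and 4.

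The effects of TET iTKO and TDG iKO in BMDMs were then set against each other, each relative to its own WT. At 0 h the difference was 1.19 ± 0.44 for Sod2 (DESeq2 adjusted p = 0.437) and 1.16 ± 0.41 for Slc7a11 (DESeq2 adjusted p = 0.371) on the log2 scale, and 0 of 10 members passed where 0.355% of 10992 genes did, 0.282% higher and 0.0728% lower. At an unadjusted p under 0.05 there were 2 members by DESeq2 and 2 by edgeR, among 723 and 599 genes, and edgeR called 0 members and 0 genes. At 6 h 0 of 10 passed where 0.0765% of 13075 genes did, 0.0459% higher and 0.0306% lower. At that time Slc7a11, at 0.72 ± 0.33, was the 1 member at an unadjusted p under 0.05 by DESeq2, and edgeR also found 1 member there and called 0 members and 1 gene.

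**Figure D5:**
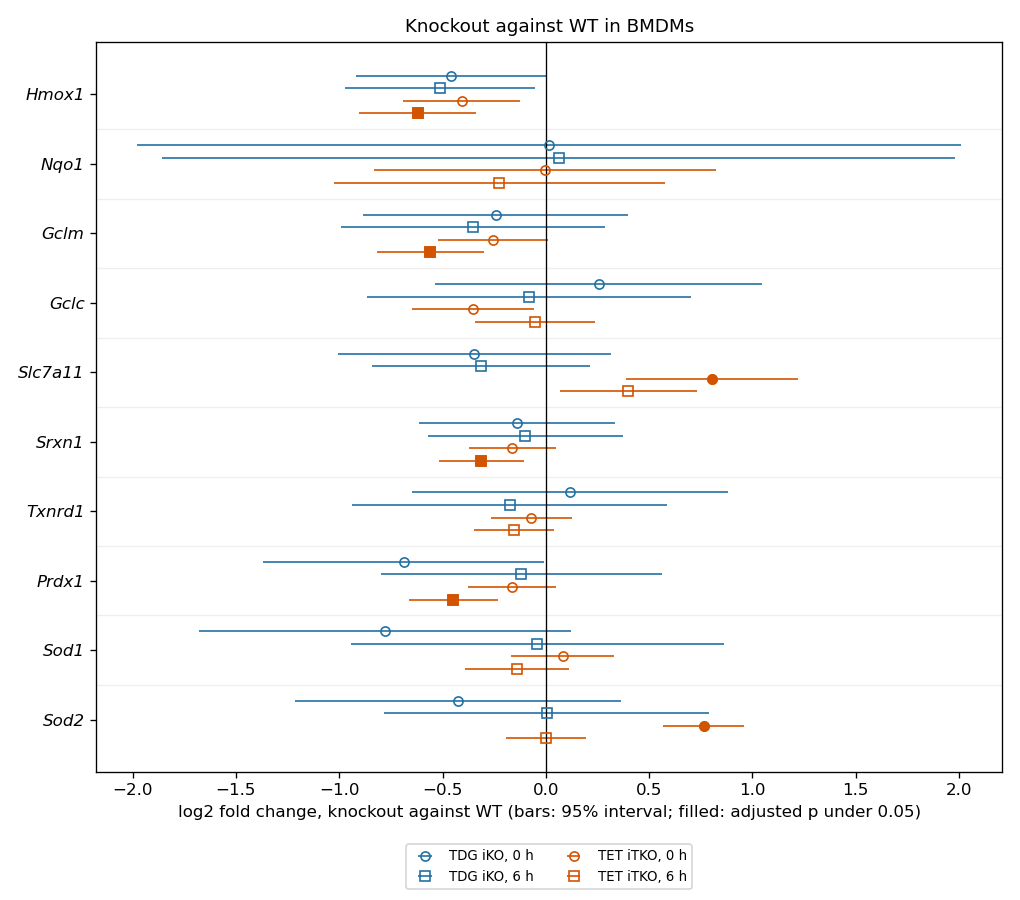
Log2 fold change of TDG iKO and of TET iTKO against WT for the 10 members in BMDMs at 0 h and 6 h, with 95% intervals from DESeq2. Filled points have an adjusted p under 0.05. Filled points are seen for TET iTKO only, above 0 for Sod2 and Slc7a11 at 0 h and below 0 for Hmox1, Gclm, Prdx1 and Srxn1 at 6 h.

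Other genes of the pathway were counted from lists fixed by name. Of 10 regulators, Nfe2l2 itself rose with KLA in all 4 BMDM genotypes, by 1.27 ± 0.28 and 1.31 on the log2 scale in WT and TDG iKO of the Tdg cohort and by 1.02 ± 0.10 and 1.18 in WT and TET iTKO of the Tet cohort (DESeq2 adjusted p from 0.00017 to 5.6e-31). Maff, a small MAF partner of NRF2, rose by 3.61, 3.20, 2.82 and 2.32 in the same order. The regulators counted 3 higher and 0 lower in each genotype of the Tdg cohort, where 5.29% of all genes were higher in WT and 4.27% in TDG iKO. They counted 5 and 0 in WT of the Tet cohort and 5 and 1 in TET iTKO, where 13.1% and 12.8% of all genes were higher. Nfe2l2 did not pass in TET iTKO against WT at either time (0.16 at 6 h, DESeq2 adjusted p = 0.46). Keap1 rose in WT of the Tet cohort (0.51 ± 0.14, DESeq2 adjusted p = 0.0025, held in 2 of 4 fits without a library) and did not pass in TET iTKO (-0.01, DESeq2 adjusted p = 0.98), but the difference between these responses did not pass the test (-0.52, DESeq2 adjusted p = 0.6).

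Bach1, the repressor that competes with NRF2, was the 1 regulator called in TET iTKO against WT at 0 h. It had 2288 and 2457 normalised counts in TET iTKO and 1538 and 1632 in WT at 0 h, with no overlap, and 1382 and 1378 against 1452 and 1350 at 6 h. Bach1 was higher in TET iTKO at 0 h by 0.58 ± 0.11 on the log2 scale (DESeq2 adjusted p = 1.3e-05) and fell with KLA in TET iTKO (-0.78 ± 0.11, DESeq2 adjusted p = 8e-11), where the change in WT did not pass (-0.17, DESeq2 adjusted p = 0.32). The difference between these responses was -0.61 ± 0.16 (DESeq2 adjusted p = 0.034), a call lost with edgeR (adjusted p = 0.206) and in each of the 8 fits without a library. The value stayed between -0.65 and -0.56 over all of these. In Th2 WT cells, Nfe2l2 and Bach1 were lower than in WT BMDMs at 0 h (-2.60 and -2.84 on the log2 scale, DESeq2 adjusted p = 1.8e-15 and 7.3e-14), and Keap1 had a difference of -0.03 (DESeq2 adjusted p = 0.93).

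Of 20 other NRF2 targets, 8 were lower and 0 higher in TET iTKO at 6 h, and 4 were lower and 2 higher at 0 h. Over all genes 3.34% were lower and 3.24% higher at 6 h, and 3.12% lower and 4.38% higher at 0 h. The largest changes at 6 h were in Gsta3, a glutathione transferase (-1.05, DESeq2 adjusted p = 0.039), and Cbr3, a carbonyl reductase (-0.87, DESeq2 adjusted p = 0.038). At 0 h they were in Gsta3 (-1.09, DESeq2 adjusted p = 0.036) and Osgin1 (0.61, DESeq2 adjusted p = 0.038). These 4 calls held in at most 1 of the 4 fits without a library. With KLA, Gsr, the glutathione reductase, rose most in this list, by 1.75 and 1.83 in WT and TDG iKO of the Tdg cohort and by 2.19 and 1.74 in WT and TET iTKO of the Tet cohort. The list counted 2 higher and 0 lower in each genotype of the Tdg cohort, 7 and 3 in WT of the Tet cohort and 7 and 6 in TET iTKO. In the same order the share of all genes called was 8.6%, 7.08%, 24.1% and 24.4%.

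Of 15 other enzymes of peroxide and glutathione metabolism, Glrx was higher at 0 h in TET iTKO (0.53, DESeq2 adjusted p = 0.00017) and the catalase gene Cat was lower at 6 h (-0.43, DESeq2 adjusted p = 0.04), calls that held in 3 and 1 of 4 fits without a library. With KLA, 2 were higher and 1 lower in WT of the Tet cohort and 1 and 2 in TET iTKO, 0 in WT of the Tdg cohort and 1 higher in TDG iKO. The 3 of 15 called in each genotype of the Tet cohort lie under the 24.1% and 24.4% of all genes called there. Prdx5 rose by 1.06 and 0.81 in WT and TET iTKO of the Tet cohort. Of 6 subunits of the phagocyte NADPH oxidase, which makes superoxide, 4 were higher with KLA in each genotype of the Tet cohort, 2 in WT and 3 in TDG iKO of the Tdg cohort, and 0 were lower. The shares of all genes higher were 13.1% and 12.8%, and 5.29% and 4.27%, in that order. Cybb, its catalytic subunit, rose by 2.19, 2.19, 2.13 and 2.13 in the order used for Gsr. In TET iTKO against WT, Rac2 and Ncf4 were higher at 0 h (0.68 and 0.43, held in 4 and 2 of 4 fits without a library) and Rac2 at 6 h (0.34, DESeq2 adjusted p = 0.045, held in none of the 4 fits without a library). In the TDG iKO against WT comparisons 0 genes of these 4 lists passed.

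The genes most like 3 members in their levels over the 16 BMDM libraries were found by Pearson's r of log2 levels among 8656 genes. The 16 libraries share 2 cohorts and 2 times, so r is a description with no test. For Sod2 they were Ptges (r = 0.994), Clec4e (0.988) and Bcl2a1a (0.983), and for Slc7a11 they were Lpcat2 (0.995), Tlr2 (0.991) and Icam1 (0.991). For Hmox1 they were Slc48a1 (0.913), which encodes a haem transporter, Ccdc125 (0.842) and Scamp1 (0.834).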

How the data were processed

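RNA-seq of 24 mouse libraries was used. According to the methods of the study and the submitters' processing notes, the authors aligned paired-end reads of directional polyadenylated libraries to mm9 with HISAT2 and counted read pairs per gene with HTSeq. The deposited values were raw counts for 23420 symbols, with no normalization. The versions of HISAT2 and HTSeq, the gene annotation and the strand setting are not given in the sources used here. Pairs that align to several places (16.6% to 32.2% of pairs per library) and the other tallies of unassigned pairs were left out of library sizes and tests, which left 48.4% to 67.2% assigned. Genes with copies therefore lose reads. Which of 2 instruments read which library is not stated.

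Groups and replicate numbers came from the labels. The members and the gene lists were chosen with earlier results of these data known. Of the other lists, the text names at most the 2 genes with the largest change past the threshold per comparison, plus Nfe2l2, Keap1 and Bach1.

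As in the study's methods, DESeq2 was the main tool (version 1.42.0, R 4.3.3). Its Wald test was used with median-of-ratios size factors, unshrunken log2 fold changes and Benjamini-Hochberg adjustment over all genes tested, at a threshold of 0.05. Th2 replicates 3 and 4 of each genotype were summed. The 8 BMDM libraries of each cohort were fitted together, effects were compared between cohorts in a fit of 16 libraries, and Th2 and BMDM WT cells in a fit of their own. In all, 14 comparisons were fitted. Alternatives were edgeR 4.0.16 (quasi-likelihood, TMM), DESeq2 with TMM factors, a low-count filter (10 counts or more in 2 or more libraries), a block for the replicate number with or without nesting in genotype, only the libraries compared, other choices of Th2 and BMDM libraries, and leaving out each replicate. The pipeline was tested on simulated data with planted changes larger than the knockout differences called in the members. The simulation therefore does not cover calls of that size. Levels per kb used exon lengths of the mm9 annotation (GENCODE).

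The pairing of libraries rested on replicate numbers given by the labels. Deviations from the group means, compared between libraries with the same number, correlated at 0.516, 0.747 and 0.921 for the 3 Th2 samples and at 0.456 and 0.512 for 0 h and 6 h of TET iTKO and of WT. The labels do not say that a number marks an animal, and each of these rests on 2 pairs. For TET iTKO and WT they correlated at 0.0234 and 0.0576. In the Tdg cohort the correlation ranged from 0.335 to 0.811, in 2 pairs only.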

Additional observations from a re-analysis of the deposited data

Results flagged for a closer look

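The response of Sod2 to KLA differed between TET iTKO and WT BMDMs by the test of the difference itself (-0.76 on the log2 scale, DESeq2 adjusted p = 7.68e-05). The value ran from -0.86 to -0.67 over the fits without a library, and the call held in 8 of 8 of them but not with edgeR (adjusted p = 0.141). The response of Bach1 also differed between these genotypes (-0.61, DESeq2 adjusted p = 0.034), a call that held in 0 of 8 fits without a library, with values from -0.65 to -0.56.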

How the results depend on the processing

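Counts of members called moved by more than 1.5 times with edgeR for TET iTKO at 0 h (1 against 2) and for the changed KLA response in TET iTKO (0 against 1), and with the replicate block for the TET effect less the TDG effect at 0 h (2 against 0). Over fits without a library the counts ranged from 0 to 0 for Th2 cells, TDG iKO at 6 h, the changed KLA response in TDG iKO and the TET less TDG effect at 6 h. They ranged from 0 to 1 for TDG iKO at 0 h, 3 to 5 and 2 to 3 for KLA in WT and TDG iKO of the Tdg cohort, and 1 to 3 and 0 to 3 for TET iTKO at 0 h and 6 h. The ranges were 5 to 6 for KLA in WT and in TET iTKO of the Tet cohort, 1 to 1 for its changed response, 0 to 5 for the TET less TDG effect at 0 h (5 without WT replicate 1 of the Tdg cohort at 0 h) and 7 to 9 for Th2 against BMDM.

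Over all members and comparisons, the sign changed in 18 of 725 values under other settings and in 90 of 765 without a library, 0 of them called in either fit. The counts that follow cover each pair of member and comparison with a call in at least 1 fit. Of 256 such values under other settings, 239 kept direction and call, 8 lost and 7 gained the call and 2 changed sign; of 250 without a library, 213 kept both, 17 lost and 14 gained the call and 6 changed sign. Those of them that changed sign were in Th2 against BMDM with the Tet cohort alone (Nqo1 -0.32, Gclc -0.034), and over fits without a library Nqo1 in the same comparison (-0.34 to 2.86, below 0 without WT replicate 2 of the Tdg cohort at 0 h and, at -0.31, without the summed Th2 WT replicates 3 and 4). The others were Gclc with KLA in WT of the Tdg cohort (-0.080 to 0.99), Txnrd1 (-0.86 to 0.27) and Prdx1 (-0.036 to 0.94) in the TET less TDG effect at 0 h, all turned by that same Tdg cohort library, and Hmox1 with KLA in TET iTKO (-0.44 to 0.085, above 0 without replicate 2 at 6 h). The cause was not tested. The block nested in genotype gave a call for Sod1 with KLA in TET iTKO (-0.28, DESeq2 adjusted p = 0.0459). The replicate block, where libraries share only a number, gave calls for Hmox1 (-0.42, DESeq2 adjusted p = 0.0124) in TET iTKO at 0 h and Slc7a11 (0.42, 0.0346) at 6 h, and for Sod2 (1.16, 0.00346) and Slc7a11 (1.17, 0.0447) in the TET less TDG effect at 0 h. Srxn1 in TET iTKO at 6 h had an adjusted p of 0.0515. Bach1 in the changed response kept its call (0.0269, and 0.0037 nested). The block changed no other member's call. In Th2 cells the block raised the calls in the whole table from 0 to 15, and to 87 with 8 separate libraries (2 without the block). The KLA calls went from 1001 to 1809 in WT and from 824 to 1375 in TDG iKO of the Tdg cohort with the block (413 and 346 by edgeR), the changed response in TET iTKO from 52 to 90 (225 nested), and the TET less TDG effect from 39 to 186 at 0 h and from 10 to 101 at 6 h. Groups of 2 libraries limit what could be called, and low counts limit Nqo1.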
